A study of Mus musculus with 11 samples.

Results

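The Prdm1 locus of the mouse carries a run of unannotated non-coding RNA features on the strand opposite to the gene, and these were measured in retinas with and without the transcription factor Nrl. The features are the 12 entries of the deposited table, of 36097 unique features in all, that overlap the stretch of chromosome 10 from 44.4 to 44.6 Mb (mm10). The rule uses position and no measured value, but the locus itself was picked with earlier results of these data known. Retinas of Nrl knockout mice (KO, 6 libraries) and of wild-type mice (WT, 5 libraries) were taken at postnatal day 21, and RNA depleted of polyadenylated transcripts was sequenced. The labels used here give no strain, sex, altered part of the Nrl allele or number of animals behind a library. The p-values therefore measure the spread between libraries, which may in part be technical.

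Nrl makes newborn photoreceptors become rods, and without it they take on features of cones. Prdm1, also called Blimp1, encodes a zinc-finger repressor that acts in newborn photoreceptor precursors, where it holds back bipolar cell genes, and an enhancer upstream of the mouse gene drives its retinal expression. The same protein is known in other tissues for directing B lymphocytes to become plasma cells. Transcription from the strand opposite to a gene, or from intergenic DNA near it, often yields RNA without a poly(A) tail, which is the class of RNA sequenced here.

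All 12 features lay on the plus strand, whereas Prdm1 is read from the minus strand. They ran from 44458934 to 44553581, that is from 186 to 94833 bp upstream of 44458748, where the main protein-coding transcript of Prdm1 starts in GENCODE M21. None of the 12 touched an annotated exon of Prdm1. The first 4 (MSTRG.8733 to MSTRG.8736) lay inside the annotated gene, because a further Prdm1 transcript, of the retained-intron class, starts at 44528501 and so extends the gene far upstream. The other 8 (MSTRG.8737 to MSTRG.8744) lay beyond that start, 6792 to 25080 bp upstream of it, in DNA with no annotated gene. Lengths ranged from 134 bp to 53211 bp. MSTRG.8736 (44471744 to 44487484) sat wholly within MSTRG.8735 (44468414 to 44521624) on the same strand and covered 29.6% of it, so the 2 are not separate stretches of DNA.

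The feature nearest to the gene, MSTRG.8733 (44458934 to 44459226), began inside the promoter window of Prdm1. The RefSeq promoter sequence (GRCm38.p6, chr10:44458699-44458998, minus strand) is shown because MSTRG.8733 enters it. The 65 bases shared with MSTRG.8733 are in capitals, at the upstream end:
Prdm1 promoter: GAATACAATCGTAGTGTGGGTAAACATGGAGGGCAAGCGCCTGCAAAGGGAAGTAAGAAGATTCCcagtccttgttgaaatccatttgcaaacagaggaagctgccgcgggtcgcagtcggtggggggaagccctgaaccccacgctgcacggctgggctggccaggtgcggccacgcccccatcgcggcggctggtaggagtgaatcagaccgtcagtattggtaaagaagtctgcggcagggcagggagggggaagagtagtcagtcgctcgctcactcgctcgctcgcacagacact
The letters TAATCC, the core bound by the photoreceptor factors Crx and Otx2, occurred 0 times on either strand of these 300 bases and in 7.06% of the 32851 promoter windows of that table. TGCTGA, part of the element bound by Nrl, also occurred 0 times and is held by 19.5% of the windows. These counts say only that the letters are not in this window. No sequence of the 12 features themselves was used here.

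The libraries were first checked against their labels and for depth. MSTRG.28375, the feature opposite to Nrl, held 0 to 0.758 normalised counts in KO and 33.3 to 55.5 in WT. Reads in the listed features numbered 3374221 to 4876429 per KO library and 3238184 to 4150460 per WT library. One read was worth 0.758 to 1.37 normalised counts. A library with 0 reads may still hold RNA worth up to 3 reads, or 2.28 to 4.11 normalised counts. Normalised counts are the authors' values, read counts divided by a size factor for each library, and such intervals cover counting error only. Whether counting used strand is not given, so reads of these features and reads of Prdm1 introns on the other strand cannot be told apart with certainty.

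RNA from the Prdm1 locus was higher in KO retinas, and most of it came from the 2 nested features. The 12 features together held 10678 ± 1794 normalised counts in KO (SD, n = 6) and 2376 ± 103 in WT (SD, n = 5). The KO mean was 4.49 times the WT mean. The lowest KO library held 8740.6 and the highest WT library 2543, so the sums did not overlap. MSTRG.8735 and MSTRG.8736 made up 94.0% to 95.1% of the sum in KO libraries and 92.5% to 95.2% in WT libraries. The KO mean was above the WT mean in 12 of the 12 features, against 49.6% of all features of the table. The table lists no feature with a mean below 2 over the libraries. MSTRG.8737, MSTRG.8738, MSTRG.8741, MSTRG.8742 and MSTRG.8744 had WT means of 1.58, 1.25, 0.963, 0.836 and 0.374, so they are listed only through KO. For these a higher KO mean was fixed in advance, and neighbouring features need not be independent. In bulk retina, more cells of a type and more RNA per cell cannot be told apart.

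**Figure D1:**
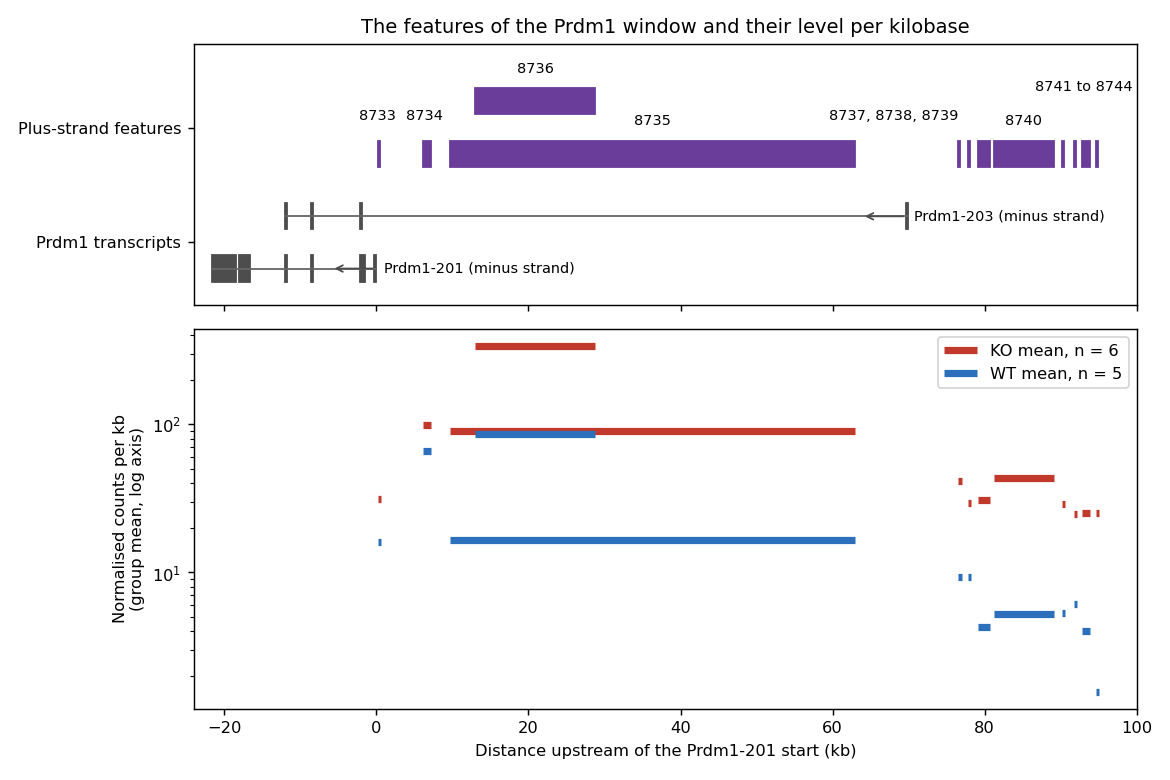
The upper panel maps the 12 features (purple) and the 2 transcripts that set the ends of the Prdm1 gene (grey, exons as blocks, arrows in the direction of transcription) by distance upstream of the main protein-coding start of Prdm1 in kilobases, with the shortest features drawn wider than scale. The lower panel gives each feature's group mean in normalised counts per kilobase of span on a log axis, KO in red (n = 6) and WT in blue (n = 5); each KO bar lies above its WT bar, and MSTRG.8736 is the highest in both groups at 337 and 85.9 per kilobase in KO and WT.

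MSTRG.8736, which spans 15741 bp and lies 12996 to 28736 bp upstream of the main Prdm1 start, was the most abundant member. It held 4412 normalised counts in the lowest, 5300 in the median and 6209 in the highest KO library, against 1395, 1296, 1380, 1301 and 1386 in WT 1 to 5. The WT libraries were close to each other, and the KO libraries stood in a lower trio (KO 1, 2 and 4) and a higher trio (KO 3, 5 and 6), all above every WT library. limma put the log2 difference, KO minus WT, at 1.96 with an SE of 0.14 (adjusted p = 1.53e-11, n = 6 and 5). Among the 21395 features tested it ranked 60th by mean in KO and 271st in WT.

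MSTRG.8735, the 53211 bp feature around it, held 3803 in the lowest, 4727 in the median and 5918 in the highest KO library. In WT 1 to 5 it held 811, 851, 866, 874 and 1036 normalised counts. The groups lay far apart, with WT 5 the highest of its group. Its KO mean was 5.42 times its WT mean, and the log2 difference of 2.42 had an SE of 0.15 (limma adjusted p = 5.84e-13). Although it contains MSTRG.8736, MSTRG.8735 held fewer counts than it in each of the 11 libraries, so reads of the shared stretch were not all counted for MSTRG.8735. Per kilobase of span, MSTRG.8735 stood at 90.4 normalised counts in KO and 16.7 in WT, and MSTRG.8736 at 337 in KO and 85.9 in WT. Exons within a feature are not in the table, so a spliced feature is understated on this scale. So is MSTRG.8735, whose full span was used although reads of the shared stretch were not all counted for it.

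Of the 8 intergenic features farther upstream, MSTRG.8740 (44539932 to 44547791, 7860 bp) was the largest and the most abundant. It held 240 in the lowest, 338 in the median and 441 in the highest KO library, against 43.9, 35.8, 49.2, 31.0 and 46.4 in WT 1 to 5. All 6 KO libraries were several times above every WT library. The log2 difference of 3.01 (SE 0.19, limma adjusted p = 1.67e-12) was the highest of the features tested at the locus and corresponds to an 8.31-fold ratio of the means. Per kilobase it stood at 43.6 normalised counts in KO and 5.25 in WT.

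MSTRG.8739 (44537819 to 44539451), which ends 480 bp before MSTRG.8740 begins, was higher in KO too. It held 32.2 in the lowest, 50.7 in the median and 66.0 in the highest KO library, against 8.23, 7.53, 5.57, 9.67 and 4.03 in WT 1 to 5. The groups did not overlap, and KO 1 was the lowest of the KO libraries. Its log2 difference of 2.71 had an SE of 0.26 (limma adjusted p = 3.36e-09).

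MSTRG.8743 (44551593 to 44552580) held 13.1 in the lowest, 25.8 in the median and 34.2 in the highest KO library. In WT 1 to 5 it held 2.74, 5.65, 6.50, 2.90 and 2.02 normalised counts, 3 of them (WT 1, 4 and 5) worth 3 reads or fewer. The groups did not overlap, and limma gave a log2 difference of 2.38 with an SE of 0.34 (adjusted p = 2.16e-06), which the added pseudocount of 1 makes smaller than the 6.27-fold ratio of the means.

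The 2 features closest to the main Prdm1 start were not called. MSTRG.8734 (44464835 to 44465963, 1129 bp), between the promoter and the nested pair, held 56.6 in the lowest, 91.9 in the median and 177 in the highest KO library, against 114, 89.4, 51.0, 62.9 and 57.5 in WT 1 to 5. The groups overlapped widely, and KO 1 and KO 4, both low for MSTRG.8736, were the highest here. The log2 difference was 0.51 (95% interval -0.03 to 1.06, limma adjusted p = 0.165), an interval that runs from no difference to about 2-fold higher in KO. Without WT 1 the log2 difference was 0.68 (limma adjusted p = 0.0476, the lowest on leaving out 1 library, where it ran up to 0.360). MSTRG.8733, at the promoter, held 3.91 in the lowest, 9.09 in the median and 16.2 in the highest KO library, against 6.86, 4.70, 0, 4.84 and 7.06 in WT 1 to 5. These values overlapped, and the log2 difference was 1.04 (95% interval 0.07 to 2.02, limma adjusted p = 0.107); without WT 3, the library at 0, it was 0.49.

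**Figure D2:**
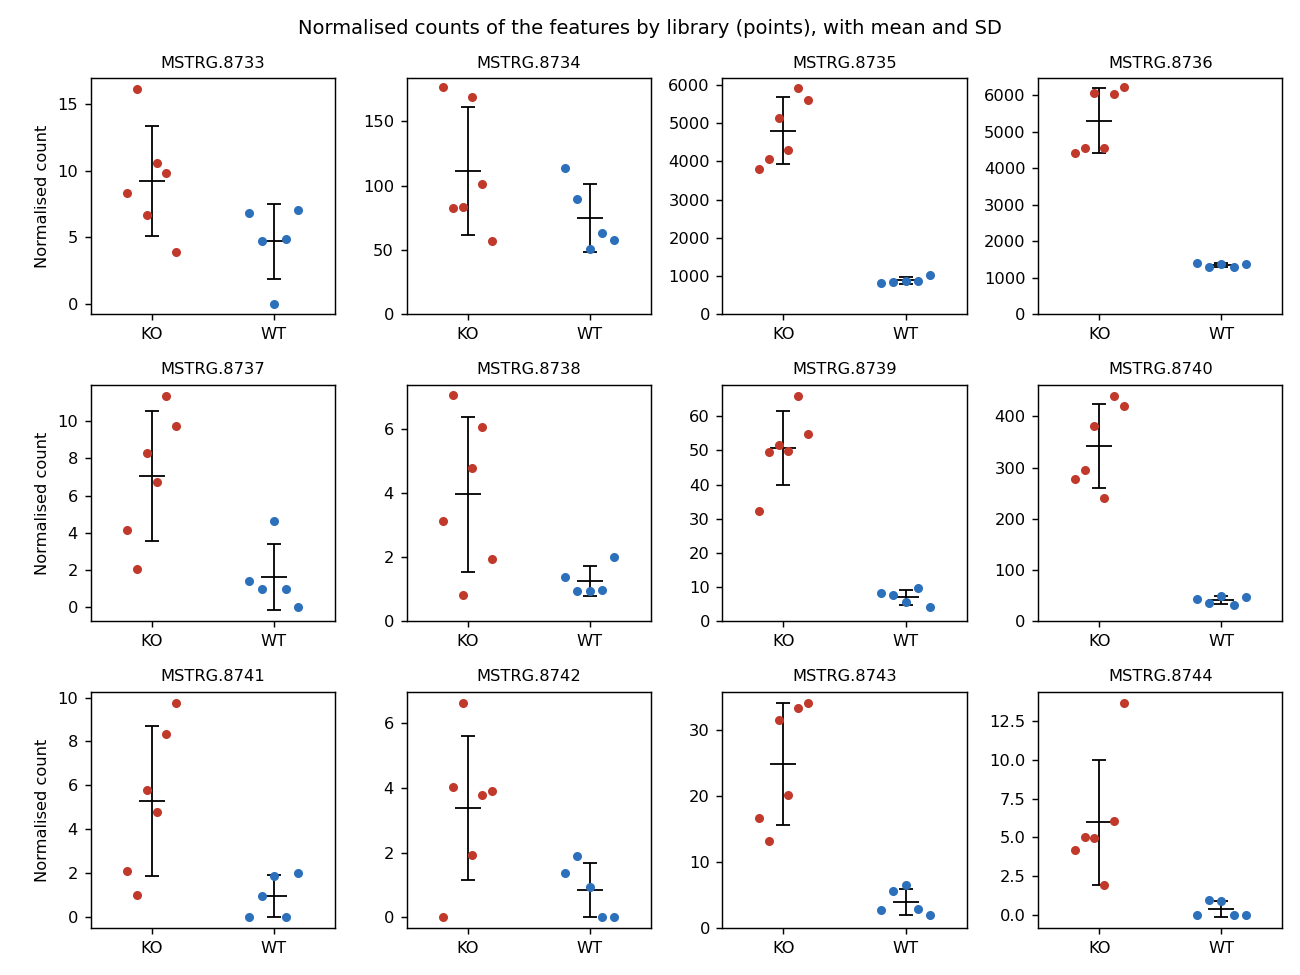
Each panel plots 1 of the 12 features, with the normalised count on a linear axis, one point per library (KO red, n = 6; WT blue, n = 5) and the group mean with SD in black. The groups stand apart for MSTRG.8735, MSTRG.8736, MSTRG.8739, MSTRG.8740, MSTRG.8743 and MSTRG.8744 and overlap for the other 6.

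Of the 12 features, 7 reached the mean of 5 normalised counts needed for the test, and limma called 5 of them higher in KO at an adjusted p below 0.05. Of all tested features, 28.1% were called, 15.6% as higher and 12.6% as lower. limma called 0 lower, edgeR and DESeq2 also 0, and 0 had a negative difference at an unadjusted p under 0.05. MSTRG.8733 and MSTRG.8743 passed the limit on the mean only through KO, and neighbouring features of 1 locus need not be independent of each other. Groups did not overlap, with KO the higher, in the same 5 tested features, against 11.1% of all tested features. The median log2 difference of all features tested was -0.02.

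**Figure D3:**
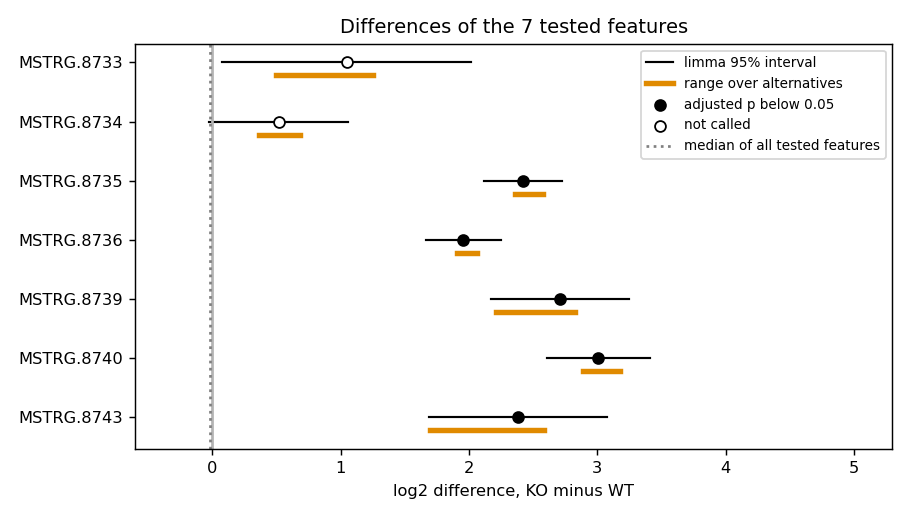
The points are limma log2 differences (KO minus WT) of the 7 tested features, with 95% intervals in black; filled points have an adjusted p below 0.05, the orange bars span the values under the alternatives tried, and the dotted line is the median of all tested features. The 5 called features lie between 1.96 and 3.01, while MSTRG.8733 and MSTRG.8734 lie at 1.04 and 0.51.

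The remaining 5 features were too low for the test and lie in the upstream intergenic run. MSTRG.8737 had 48 reads over all KO libraries and 8 over all WT libraries. MSTRG.8738 had 26 and 6, MSTRG.8741 had 36 and 5, and MSTRG.8742 had 23 and 4, in KO and WT. MSTRG.8744, the last feature of the run, had 39 reads in KO and 2 in WT. Corrected for depth this is 14.6 times as many in KO, and counting error alone puts the ratio between 3.78 and 125 (exact 95% interval). It was the 1 untested member whose groups did not overlap (1.92 to 13.7 in KO and 0 to 0.941 in WT), against 8.28% of all features of the table with KO the higher. With no limit on the mean beyond the table's own of 2, limma called MSTRG.8737, MSTRG.8741 and MSTRG.8744 higher as well. That made 8 of 12 in all, where 21.1% of all features were called in either direction (4314 higher and 3293 lower). In the authors' deposited table the same 8 have an adjusted p below 0.05 and are higher in KO, against 10.9% of all features. MSTRG.8737, MSTRG.8741 and MSTRG.8744 had WT means of 1.58, 0.963 and 0.374, so they are listed only through KO. Their calls, and the gap between the groups at MSTRG.8744, are therefore no support for a difference. The authors' deposited table gives log2 fold changes of 1.97 for MSTRG.8736, 2.44 for MSTRG.8735, 3.06 for MSTRG.8740 and 0.58 for MSTRG.8734 (adjusted p = 0.169).

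The features of the locus did not move by 1 common factor. MSTRG.8736 stood at 25.0 to 110 times MSTRG.8734 in KO libraries and at 12.3 to 27.0 times in WT libraries. The log2 of that ratio was 5.66 ± 0.826 in KO (SD, n = 6) and 4.22 ± 0.480 in WT (SD, n = 5). The difference was 1.44 (exact two-sided permutation test over libraries, p = 0.00866), though the values of KO 1 and KO 4 lay within the WT range. MSTRG.8734 and MSTRG.8736 are among the members, which were chosen with earlier results of these data known. The other ratios were looked at after the values were seen and are given with no test. MSTRG.8735 over MSTRG.8736 was 0.850 to 0.980 in KO and 0.581 to 0.747 in WT, and MSTRG.8740 over MSTRG.8736 was 0.0528 to 0.0729 in KO and 0.0238 to 0.0356 in WT. The ranges of KO and WT did not overlap for these 2 ratios. They overlapped for the other tested intergenic features, with MSTRG.8739 over MSTRG.8736 at 0.00731 to 0.0110 in KO and 0.00291 to 0.00743 in WT, and MSTRG.8743 over MSTRG.8736 at 0.00288 to 0.00552 in KO and 0.00146 to 0.00471 in WT.

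**Figure D4:**
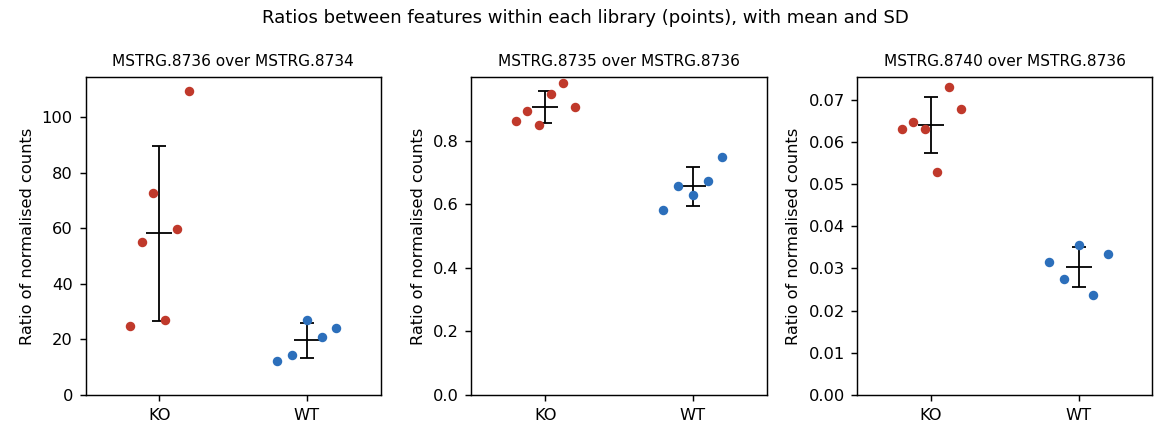
Each panel plots, per library, the ratio of the normalised counts of 2 features on a linear axis from 0 (KO red, n = 6; WT blue, n = 5; mean and SD in black). The KO libraries lie above the WT libraries for MSTRG.8735 and MSTRG.8740 over MSTRG.8736, while for MSTRG.8736 over MSTRG.8734 the 2 lowest KO libraries, at 25.0 and 26.9, lie within the WT range.

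The spread among KO libraries was shared by many members. KO 3, KO 5 and KO 6 held more than KO 1, KO 2 and KO 4 for MSTRG.8735, MSTRG.8736, MSTRG.8737, MSTRG.8739, MSTRG.8740, MSTRG.8741 and MSTRG.8743. One read was worth 0.830, 0.758 and 0.976 normalised counts in KO 3, 5 and 6, and 1.04, 1.01 and 0.960 in KO 1, 2 and 4. The part of library scaling in this spread was not tested. The other 5 features did not divide the KO libraries in this way.

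Beyond the 12 features, the domain around the locus held little RNA in this table. The authors' deposited table places all 12 features in chromosomal domain TAD_1504 and lists Prdm1 as the mRNA that is higher there, with none listed as lower. The other 8 features of the domain reached means of at most 29.2 normalised counts in KO and 24.2 in WT. limma tested 2 of these and called 0, with 0 at an unadjusted p under 0.05, and edgeR and DESeq2 each called 0. Within 1 Mb on either side of the window, 10 of 18 features were tested and 2 were higher, a share close to the 15.6% of all tested features. The 18 include the 8 other features of the domain just given. The 2 higher ones lie in a different domain, TAD_1502. These 2, named after their values were seen, lie in annotated non-coding genes. MSTRG.8712, in Gm40634, held 376 ± 79.1 in KO (SD, n = 6) and 106 ± 23.6 in WT (SD, n = 5). MSTRG.8713, in 1700027J07Rik, held 37.6 ± 8.19 in KO and 9.09 ± 3.79 in WT.

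Among 17 genes of the PRDM family and the related Zfpm genes, most of which encode zinc-finger regulators, 6 had features in the table, 15 in all, and 12 features at 4 genes were tested, all on the opposite strand. Of these 12, 3 were higher and 9 were not called, and 4 of the 12 were those inside Prdm1, with MSTRG.8735 and MSTRG.8736 the higher ones. Outside the Prdm1 locus 1 of 8 was higher, near the 15.6% of all tested features, with a median log2 difference of 0.30, and limma, edgeR and DESeq2 each called 0 lower (0 at an unadjusted p under 0.05). The 1 call was MSTRG.69123, opposite to Prdm8, which encodes a repressor used in bipolar and amacrine cells. It held 11.8 ± 5.81 in KO (SD, n = 6) and 4.88 ± 2.69 in WT (SD, n = 5), a log2 difference of 1.15 (limma adjusted p = 0.0375), and it reached the mean of 5 only through KO. edgeR (adjusted p = 0.0626) and DESeq2 (adjusted p = 0.107) did not call it, nor did limma without KO 1, KO 4, KO 6, WT 3 or WT 5, where the adjusted p was 0.0949, 0.0975, 0.0713, 0.0710 and 0.139; over all alternatives it ran from 0.0123 to 0.139. MSTRG.69119, also opposite to Prdm8 and the uncalled feature of highest mean, held 208 ± 58.4 in KO and 145 ± 56.4 in WT (adjusted p = 0.0751). Without WT 1 the family count was 6 higher in place of 3.

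The wider network that sets photoreceptor against bipolar fate, 41 genes with Prdm1 included, had 61 features at 24 genes, of which 45 at 22 genes were tested. Of these, 12 were higher, 14 were lower and 19 did not pass the test; the median log2 difference was 0.14. Without the 4 at Prdm1, 10 were higher and 14 lower, and the median was -0.06. Over all tested features 15.6% were higher and 12.6% lower. Of the 12 higher features, 4 had a WT mean below 5, and of the 14 lower features, 7 had a KO mean below 5, so these 11 passed the limit on the mean only through the group where they are high. The features tested at Otx2, the upstream activator of Prdm1 in photoreceptor precursors, were higher in 3 of 3 cases. MSTRG.27969 and MSTRG.27970 lie on the same strand as Otx2, so reads of Otx2 itself cannot be told apart from theirs. Also higher were 3 of 4 at the cone receptor gene Thrb and 1 of 1 at Rxrg, Neurod1, Notch1 and Lhx4. Those at Rxrg, Neurod1 and Notch1, and MSTRG.26905 at Thrb, are the 4 with a WT mean below 5. Lower were 6 of 7 at Esrrb, 2 of 3 at Rorb, 2 of 2 at Crx and 2 of 5 at Casz1. The 1 feature tested at Nrl and the 1 at Samd7 were lower too. These genes have known roles in rods or photoreceptors. The 7 with a KO mean below 5 are MSTRG.28375 at Nrl, MSTRG.45149 at Rorb and the called Esrrb features other than MSTRG.21449. MSTRG.28375 lies at the knocked-out gene and was also used above to check the labels, so its fall is not a separate result.

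The 3 features of that list with the largest called differences were all lower. MSTRG.21447 (chromosome 12, 86506765 to 86507755), opposite to the rod nuclear receptor gene Esrrb, held 2.04 ± 1.77 in KO (SD, n = 6) and 360 ± 106 in WT (SD, n = 5). MSTRG.21442, also opposite to Esrrb, held 0.620 ± 0.787 in KO and 63.5 ± 15.9 in WT. The third was MSTRG.28375, given above, which lies at the knocked-out gene Nrl and served as the check of the labels. The uncalled feature of highest mean was MSTRG.57050, opposite to Mef2d, a photoreceptor co-regulator, with 287 ± 89.0 in KO and 253 ± 62.0 in WT.

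**Figure D5:**
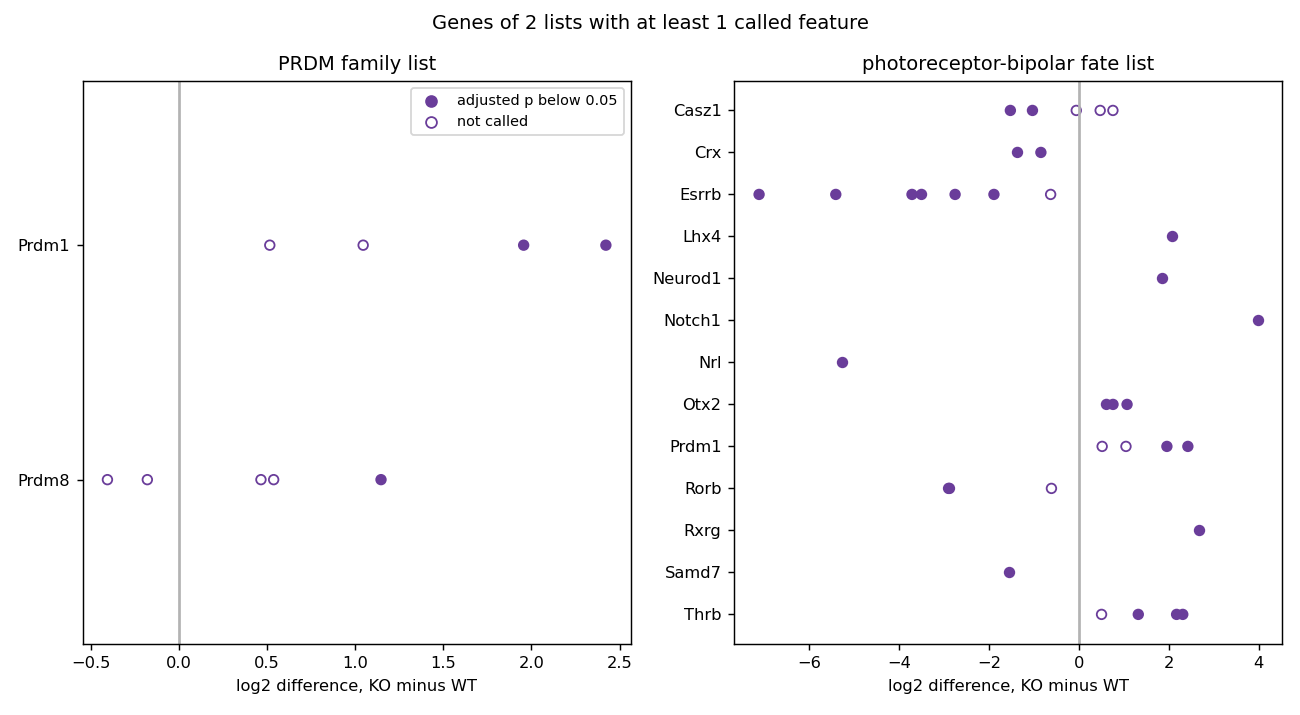
For the genes with at least 1 called feature, each point is a tested feature that overlaps the gene, placed by its log2 difference (KO minus WT) and filled where the limma adjusted p is below 0.05. In the PRDM family list the points at Prdm1 reach 2.42 and 3 points in all are filled; in the fate list filled points lie on both sides of 0, 12 higher and 14 lower.

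Features at rod and cone marker genes also differed between KO and WT retinas. Over the rod list, features at 10 of 11 genes summed to 444 to 783 normalised counts in KO and 2890 to 5109 in WT, with 22 of 30 tested features lower and 4 higher. Over the cone list, features at 8 of 10 genes summed to 1257 to 1935 in KO and 369 to 413 in WT, with 16 of 25 higher and 2 lower. For bipolar markers the sums overlapped, 508 to 758 in KO and 382 to 657 in WT. Of 14 bipolar features, 2 were higher and 1 lower. Over all tested features 15.6% were higher and 12.6% lower, and the bipolar share of higher features was near that. A feature could pass the limit on the mean through 1 group alone, as MSTRG.28375 at Nrl (rod list) and MSTRG.26905 at Thrb (cone list) did. How many did so was not counted for these lists. No feature overlapped the rod gene Nr2e3, the cone genes Opn1mw and Cnga3, or the bipolar genes Grm6 and Pcp2. The part of cell makeup in the Prdm1 result was not tested. Features at Müller glia markers (3 of 6 genes) summed to 17.6 to 34.3 in KO and 29.3 to 55.5 in WT, with 1 of 2 tested features lower. Those at amacrine markers (2 of 5 genes) summed to 24.1 to 81.1 in KO and 47.4 to 72.7 in WT, and those at ganglion cell markers (1 of 5 genes) to 25.8 to 54.8 in KO and 35.8 to 49.2 in WT, with no feature called in either list. Lymphocyte and plasma cell markers, included because Prdm1 is active in those cells, had features at 2 of 7 genes, which summed to 2.93 to 8.08 in KO and 7.74 to 18.2 in WT, with the 1 tested feature lower. Features overlapped none of the vascular and microglial markers.

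Outside the locus, the features whose pattern over the 11 libraries was most like that of MSTRG.8736 lay on other chromosomes. Features of the locus were left out of this ranking. MSTRG.8735, which overlaps MSTRG.8736, had a Pearson correlation of 0.9965 with it, above the 0.9962 of the highest feature outside. Its Spearman's rho was 0.864. Among 2649 features outside the window with a mean of at least 100, Pearson correlations of log2 values were highest for MSTRG.18614 on chromosome 12 (0.996), MSTRG.33155 on chromosome 15 (0.996), MSTRG.43042 on chromosome 18 (0.995), MSTRG.66166 on chromosome 5 (0.995) and MSTRG.82527 on chromosome 7 (0.995). Spearman's rho was 0.945, 0.882, 0.955, 0.873 and 0.909 in the same order. The gap between the groups sets most of these values, and all libraries share their scaling with MSTRG.8736. The correlations are a description with no test. All 5 were higher in KO, with log2 differences of 2.28, 3.25, 2.93, 3.73 and 3.37. MSTRG.18614, which spans 6538722 to 6568848 with no annotated gene, held 2401 ± 406 in KO (SD, n = 6) and 490 ± 47.8 in WT (SD, n = 5). MSTRG.66166 lies opposite to Abcb1b and the non-coding gene 7330423F06Rik and held 2576 ± 545 in KO and 192 ± 37.7 in WT.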

How the data were processed

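Each library has one signal column in the deposited table. The values are read counts that the authors normalised with DESeq2, as the table's own name says; coordinates are mm10. The deposited means are signal means over libraries. The log2 fold change with its error, the score and the p-value of each feature were deposited by the authors; the score has the opposite sign to the fold change in 100% of features, so directions were taken from the group means. The submitters' processing notes name, without a role, the builds mm10 and mm9 and the tools Cuffdiff, Cufflinks 2.2.1 and TopHat2 2.0.10. The assembler, counter and strand setting are not given there or in the labels.

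Each of 36097 unique features was used 1 time, with starts counted from 1. Dividing each library by its smallest value above 0 gave whole reads in 100% of values (tolerance 0.001). The two-sided test was limma 3.58.1 with trend and robust settings (R 4.3.3), run on log2 of the normalised count plus 1 over 21395 features with a mean of at least 5, with Benjamini-Hochberg adjustment and a threshold of 0.05. edgeR 4.0.16 and DESeq2 1.42.0 were run on the reads of 9 libraries, leaving out KO 2 and WT 5, whose size factors are near 1 and give no check that reads were recovered; edgeR called 3215 higher and 2518 lower, and DESeq2 2960 and 2508. The fits were tested on simulated data. Genes were placed by GENCODE M21, and the promoter sequence is RefSeq's (GRCm38.p6), with 1 window matched to Prdm1. Besides the members, the text names by rule, for each gene list, the 3 called features of largest difference and the uncalled one of highest mean, and the 5 features most like MSTRG.8736. Members and lists were chosen with earlier results of these data known. Some results are not reported here.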

Additional observations from a re-analysis of the deposited data

Results flagged for a closer look

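For 2 of the 12 features of the Prdm1 locus, 1 library stood far from the others of its group. For MSTRG.8735, WT 5 held 1036 normalised counts and the other 4 WT libraries 811 to 874; all 6 KO libraries were above it, at 3803 or more. For MSTRG.8744, KO 6 held 13.7 and the other 5 KO libraries 1.92 to 6.07, against at most 0.941 in WT. Among the other features named, WT 1 held 244 for MSTRG.69119 at Prdm8, against 104 to 134 in the other 4 WT libraries. At MSTRG.28375, opposite to Nrl, KO 5 held 0.758, which is 1 read, and the other 5 KO libraries 0, so that this read sets the whole range. Of 46 groups of values looked at, 4 were singled out in this way, and chance alone gives about 1 in 20.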

How the results depend on the processing

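The 5 called features of the Prdm1 locus kept their direction and their side of the threshold under each alternative in which they were tested, leaving out each library in turn included; MSTRG.8743 falls under a mean of 20 and was not tested there. Their log2 differences ranged from 1.91 to 2.06 for MSTRG.8736, 2.36 to 2.58 for MSTRG.8735, 2.21 to 2.83 for MSTRG.8739, 2.89 to 3.18 for MSTRG.8740 and 1.70 to 2.58 for MSTRG.8743. With no limit on the mean beyond the table's own of 2, 8 locus features were higher, and those added are listed only through KO. Leaving out 1 library gave 5 to 6. Leaving out 1 library moved MSTRG.8734 between 0.36 and 0.68 (adjusted p 0.0476 to 0.360, below the threshold without WT 1), MSTRG.8733 between 0.49 and 1.25, the PRDM family count between 2 and 6 higher (6 without WT 1), and the ratio of MSTRG.8736 to MSTRG.8734 between 1.22 and 1.65. With a mean of at least 20, 8 features of the fate list were lower, in place of 14, as fewer were tested. Replicate numbers were not taken to pair the samples, since the labels give them no meaning and 2 of 5 correlations were not over 0.1: the deviations of same-numbered KO and WT libraries correlated at 0.294, 0.00135, 0.123, 0.0512 and 0.273 for numbers 1 to 5, and 2 of 5 KO libraries correlated best with their own number. With the replicate number as a block in 10 libraries, without KO 6, MSTRG.8733 (1.24, adjusted p = 0.0162) and MSTRG.8734 (0.68, adjusted p = 0.00168) were called, the PRDM family had 7 higher, and calls over all features were 3667 higher and 3260 lower, in place of 3327 and 2695. The ratio, taken in 5 such pairs, was 1.22 (exact two-sided sign-flip permutation p = 0.0625, the smallest 5 pairs allow). The cause of these changes was not tested. The 9-library limma fit was chosen after seeing the data and gave 6 locus calls. Depth limits the 5 features of under 5 normalised counts.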
